A study of Mus musculus with 12 samples.

Results

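Chromatin accessibility was compared between stimulated and resting bone marrow derived macrophages, using the 8 ATAC-seq libraries of the second and rest phases out of the 12 in the series. Rest-phase cells were marrow progenitors of male C57BL/6J mice (8 weeks old at allocation), grown for 7 days with recombinant M-CSF in medium with 5 mmol/L glucose. Second-phase cells had the same culture, followed by LPS at 100 ng/mL together with IFN-γ at 10 ng/mL over 16 hours. In both phases there are diabetic-trained and untrained groups, with 2 libraries each. Donors of the diabetic-trained groups were injected intraperitoneally with streptozotocin at 42 to 45 mg/kg a day for 5 days, each time after 12 hours of fasting. They had nonfasted blood glucose over 16.9 mmol/L a week later and lived with hyperglycaemia for 6 weeks before marrow was taken. Untrained cells came from control mice, and the labels name no transgene. The model therefore combines diabetes in the donor with stimulation in culture, and by the labels every second-phase library had both agents, so IFN-γ and LPS cannot be told apart. The labels do not say whether libraries came from separate animals, so the spread between libraries may be technical. Unless a fit over libraries is named, SEs and p-values come from group means, each the average of 2 libraries. They reflect the spread between the 2 means of a phase, not the spread between libraries.

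The 2 group means of the second phase were set against the 2 of the rest phase, over both donor groups, at 139999 peaks that the authors deposited for both phases. The headers do not tie a mean column to a donor group. The columns are therefore called A and B within a phase, and A of one phase need not be A of the other. Whole reads of the 2 libraries behind each mean were recovered, and the number 1 or 2 of a library follows its scaling factor, not the replicate number in its label.

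IFN-γ binds a receptor whose Janus kinases phosphorylate STAT transcription factors, which bind GAS elements, and the induced interferon regulatory factors (IRFs) bind interferon-stimulated response elements (ISRE). LPS is sensed by TLR4 with its co-receptor CD14, and the adaptors lead to NF-kB, to AP-1 and to a secondary interferon response. In macrophages the combination is known to induce guanylate binding proteins, chemokines, inducible nitric oxide synthase and antigen presentation, and part of this induction occurs at enhancers that open on stimulation.

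The libraries did not divide cleanly by phase. Reads in peaks ranged from 5459236 to 18617444 in the rest phase and from 3832347 to 17994363 in the second, with a median of 18 to 56 reads per peak. On the log2 scale second-phase A2 and B2 correlated with each other at r = 0.931 across peaks. Second-phase A1 correlated with rest-phase A1 at r = 0.976 and with its own group partner A2 at r = 0.815. Second-phase B1 correlated with rest-phase A1 at r = 0.888 and with its partner B2 at r = 0.726. For comparison, partners in the rest phase correlated at r = 0.966 (A1 with A2) and r = 0.898 (B1 with B2). On the first principal component, which held 43.7% of the variance, second-phase A2 and B2 lay at 234.8 and 276.3 and the other 6 libraries between -127.6 and -42.7. These are correlations across peaks, which are not independent replicates. Second-phase A1 and B1 thus lay among the resting libraries. Whether these 2 libraries were stimulated as labelled was not tested, and every result below rests on second-phase A2 and B2 to the extent that the values by library show. Within the rest phase, libraries B1 and B2 lay at -220.4 and -144.3 on the second component (23.5% of the variance) and the other 6 libraries between 12.7 and 105.9.

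The macrophage label was checked on peaks within 1000 bp of a gene start. Of 24 genes of macrophage identity 23 had such a peak, and their median log2 level lay between 7.97 and 8.45 in the 8 libraries. The same median for markers of neutrophils, B cells, T and NK cells, erythroid cells and megakaryocytes, dendritic and mast cells, and stromal and fat cells lay between 4.46 and 6.15. Such peaks were present at 14 of 15 neutrophil, 10 of 12 B cell, 9 of 15 T and NK cell, 10 of 15 erythroid and megakaryocyte, 7 of 14 dendritic and mast cell and 9 of 15 stromal and fat cell genes. Genes without one included Cd3e, Cd4 and Cd8a of T cells, Ighm of B cells and Cpa3 of mast cells.

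Of 139926 peaks fitted, 3846 (2.75%) rose and 15 (0.0107%) fell in the second phase by limma's test of group means at a Benjamini-Hochberg adjusted p under 0.05. The median log2 difference was 2.14 over the peaks that rose (range 0.72 to 5.05), -1.66 over those that fell and -0.12 over all peaks. When the 8 libraries, not the 4 means, were the replicates, limma called 0 peaks, with 16019 at an unadjusted p under 0.05 and a smallest adjusted p of 0.422. In that fit all 3846 peaks kept a positive difference, with a median of 1.6. The median was 1.19 without second-phase A2 and 1.15 without B2, and 2.06 without A1 and 1.99 without B1. Second-phase A2 and B2 each lay above all 4 rest libraries at 100.0% of these 3846 peaks, A1 at 33.4% and B1 at 38.8%. All 4 second-phase libraries lay above all 4 rest libraries at 589 of them (15.3%), against 2.25% of all peaks. The peaks that rose held 5.68% and 5.98% of the reads in peaks of second-phase A2 and B2, 1.36% and 1.69% of A1 and B1, and 0.95% to 1.20% of the rest libraries. These peaks were selected on means of the same 8 libraries. Their signs, separation and read shares by library thus describe the selected peaks and are not independent support for a rise.

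**Figure D1:**
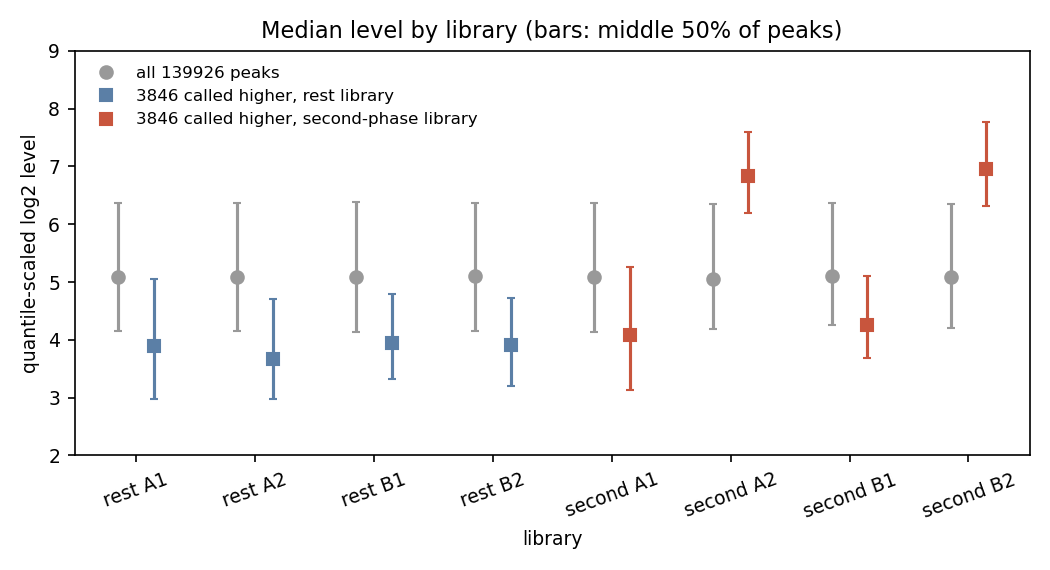
Median quantile-scaled log2 level of all 139926 peaks (grey circles) and of the 3846 peaks called higher (squares, blue for rest and red for second-phase libraries), with bars over the middle 50% of peaks. The medians of second-phase A2 and B2 at called peaks (6.84 and 6.95) stand above the other 6 libraries (3.66 to 4.25), while the medians of all peaks lie between 5.06 and 5.1. The called peaks were selected on means of these same libraries.

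Peaks that rose lay in all classes of annotation. Distal intergenic sites were 36.6% of them and 30.2% of all peaks, later introns 28.4% and 24.3%, and first introns 13.0% and 12.4%. Promoters within 1 kb were 6.94% and 16.7%. The share called higher was 0.69% of the 13475 peaks that lie over an annotated start and 3.89% of the 9702 peaks more than 100 kb from one. Calls also differed by resting level, the log2 mean of the rest-phase group means. Of peaks with a resting level below 3.99, 6.99% were called higher, and these made up 63.6% of all such calls. Of peaks above 6.01, 0.9% were called higher. The median resting level was 6.19 at promoters within 1 kb and 4.57 at distal intergenic sites. The shares by location were not adjusted for resting level, its part in them was not tested, and no test was run on them.

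**Figure D2:**
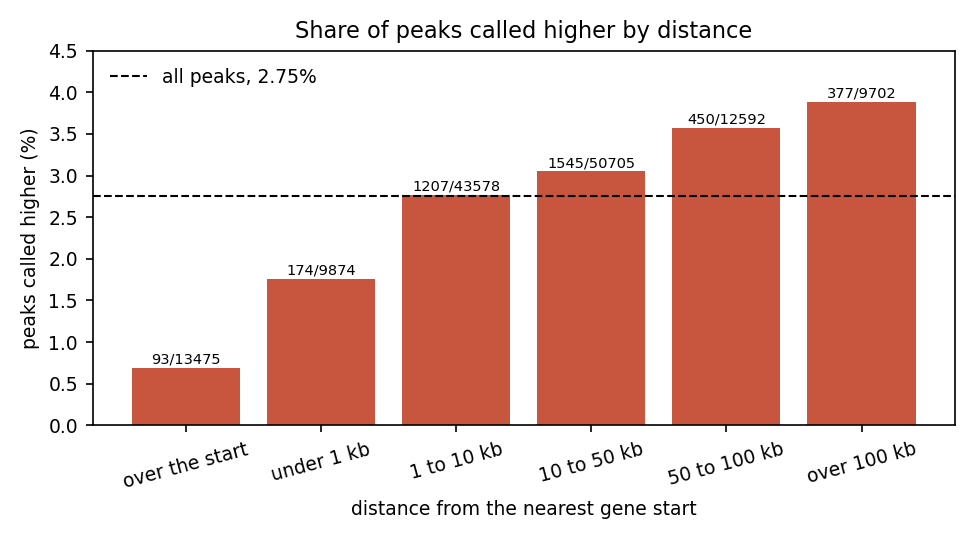
Percent of peaks called higher by distance from the nearest annotated gene start, with called and tested peaks printed above each bar and the share over all peaks (2.75%) as a dashed line. The share rises from 0.69% over the start to 3.89% beyond 100 kb, with no adjustment for resting level.

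Promoters of 6 induced genes are printed because their start peaks rose and they hold elements of the pathways described above. Each line gives the 250 bases before the start in RefSeq (GRCm38.p6, the build of mm10), 5′ to 3′ on the strand of the gene. Capitals mark matches on either strand to an ISRE core (GAAANNGAA), a GAS element (TTCNNNGAA) or a kB element (GGGANTTTC), and overlapping matches were kept.
Gbp5: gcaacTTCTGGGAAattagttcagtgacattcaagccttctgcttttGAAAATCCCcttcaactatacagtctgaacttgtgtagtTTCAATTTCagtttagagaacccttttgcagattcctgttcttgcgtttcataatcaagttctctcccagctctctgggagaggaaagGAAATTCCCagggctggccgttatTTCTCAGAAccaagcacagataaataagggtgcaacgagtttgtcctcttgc
Gbp2: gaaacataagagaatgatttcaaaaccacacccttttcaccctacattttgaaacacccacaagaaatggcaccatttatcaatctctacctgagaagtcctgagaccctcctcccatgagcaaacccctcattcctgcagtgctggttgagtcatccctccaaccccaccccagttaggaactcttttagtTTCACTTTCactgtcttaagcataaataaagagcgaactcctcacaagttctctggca
Cxcl10: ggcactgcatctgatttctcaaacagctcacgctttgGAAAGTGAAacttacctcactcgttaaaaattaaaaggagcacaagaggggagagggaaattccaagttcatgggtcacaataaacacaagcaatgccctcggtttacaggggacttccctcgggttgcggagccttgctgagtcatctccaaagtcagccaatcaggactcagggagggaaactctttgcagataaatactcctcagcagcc
Socs1: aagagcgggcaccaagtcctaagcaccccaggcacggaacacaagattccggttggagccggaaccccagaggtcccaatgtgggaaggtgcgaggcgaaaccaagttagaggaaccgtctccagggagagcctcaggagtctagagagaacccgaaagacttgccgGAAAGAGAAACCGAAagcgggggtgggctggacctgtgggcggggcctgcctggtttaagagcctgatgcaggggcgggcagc
Irf1: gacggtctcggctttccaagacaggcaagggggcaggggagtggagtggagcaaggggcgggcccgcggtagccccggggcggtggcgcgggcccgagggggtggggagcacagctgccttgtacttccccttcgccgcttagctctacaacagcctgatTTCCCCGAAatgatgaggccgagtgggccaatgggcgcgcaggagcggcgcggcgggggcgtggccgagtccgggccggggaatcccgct
Il6: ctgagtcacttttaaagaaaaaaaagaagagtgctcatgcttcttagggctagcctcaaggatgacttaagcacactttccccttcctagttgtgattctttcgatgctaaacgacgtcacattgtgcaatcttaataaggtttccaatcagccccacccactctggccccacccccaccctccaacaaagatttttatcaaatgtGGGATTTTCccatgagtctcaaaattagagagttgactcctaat
Gbp5, at chr3:142496684-142496933 on the plus strand, held 5 matches: GAS at -245 and -52, kB at -203 and -76 and ISRE at -164, each position being the first base of the match counted from the start. Gbp2, at chr3:142620413-142620662 on the plus strand, held an ISRE at -58. Cxcl10, at chr5:92348890-92349139 on the minus strand, held an ISRE at -213. Socs1, at chr16:10785537-10785786 on the minus strand, held overlapping ISRE matches at -83 and -77. Irf1, at chr11:53769764-53770013 on the plus strand, held a GAS match at -90, and Il6, at chr5:30012864-30013113 on the plus strand, a kB match at -44. The promoter of Acod1, whose start peak also rose, held no match to the 3 elements in the same window. A match is a description of the letters, not evidence of binding. Each element was searched as a single fixed pattern, so other forms of it, kB forms included, are not marked. A promoter without a match may still hold such a form.

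Over windows of 300 bases (250 before to 50 after the start), 78 promoters overlapped a peak that rose. An ISRE core was in 33.3% of these 78, in 7.17% of the 12999 promoters with any tested peak and in 8.55% of all 32817 promoters. GAS was in 17.9%, 6.89% and 8.29% of the same 3 sets, kB in 8.97%, 1.01% and 1.11%, and the AP-1 element TGANTCA in 24.4%, 6.19% and 7.81%. The C/EBP element TTGCNNAA was in 17.9%, 8.68% and 10.8%, and an ETS element with a purine flank (GAGGAAG) in 14.1%, 14.8% and 13.6%. The GC box GGGCGG went the other way, at 12.8%, 61.3% and 35.6%. The part of base composition, which the GC box shares touch on, was not tested.

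At the start of Ifngr1, which encodes the ligand-binding chain of the IFN-γ receptor, the level did not change detectably. Log2 levels in libraries A1, A2, B1 and B2 (the order used throughout) were 9.57, 9.65, 9.68 and 9.73 at rest and 9.67, 9.76, 9.86 and 9.56 in the second phase. The phases overlapped, with a difference of 0.04 (SE 0.15, adjusted p = 0.939). In all, 14 of 227 peaks of 17 receptor and JAK-STAT genes rose (6.17%, against 2.75% of all peaks), with a median difference of 0.05 over the list. They included 3 of 15 at Stat3, a transcription factor of cytokine signalling, and 1 at Usp18, an inhibitor of interferon receptor signalling, which rose by 3.16 (SE 0.46).

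Among the interferon-induced transcription factors, the start peak of Irf1 (chr11:53769733-53770132) rose 2.09-fold. Its levels were 8.21, 8.25, 8.39 and 8.67 at rest and 8.26, 9.64, 8.51 and 9.79 in the second phase, and the log2 difference was 1.06 (SE 0.23, adjusted p = 0.0167). Second-phase A1 and B1 lay within the range of the rest libraries. Irf8, a lineage factor of macrophages, differed by 0.41 at its start (SE 0.27, adjusted p = 0.559). A peak assigned to it at -24706 bp from that start (chr8:120711253-120711652) rose by 2.08 (SE 0.44, adjusted p = 0.0161). That peak lies in an intron that may belong to another gene. Batf2, a partner of IRF proteins, rose at its start by 1.63 (SE 0.37), from 5.63 to 6.76 over the rest libraries to 6.46, 8.18, 6.58 and 8.03. Socs1 encodes a feedback inhibitor of Janus kinases. Its start peak (chr16:10785475-10785874) was at 8.03, 8.11, 8.00 and 8.07 at rest and 7.86, 9.45, 7.98 and 8.99 in the second phase. The rest libraries were close to each other there, and the log2 difference was 0.87 (SE 0.22, adjusted p = 0.049), with second-phase A1 and B1 below all 4 rest libraries. Of 173 peaks of the 12 IRF and BATF genes, 9 rose (5.20%), with a median of 0.02.

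On the LPS side, the start peaks of the receptor genes did not pass the test. Tlr4 was at 9.06, 9.08, 8.54 and 8.71 at rest and 9.14, 8.36, 8.93 and 8.06 in the second phase, a difference of -0.32 (SE 0.24, adjusted p = 0.609). Cd14 differed by -0.06 (SE 0.24, adjusted p = 0.936). Of 223 peaks of 23 TLR genes and adaptors, 11 rose (4.93%, list median -0.02), 3 of them assigned to Tlr1, 3 to Tlr4 and 2 to Irak2, a kinase of the pathway. The Tlr4 peak named by the rule, which rose by 1.88 (SE 0.39, adjusted p = 0.0152), is intergenic and 554964 bp from the Tlr4 start. The Tlr1 peak at chr5:64886107-64886506, intergenic and 46255 bp from the Tlr1 start, rose by 2.87 (SE 0.46), from 5.01, 4.73, 3.32 and 3.77 to 5.24, 7.82, 3.46 and 7.79. At Tlr1 too, A2 and B2 were the high libraries.

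In the NF-kB pathway, Nfkbia, the inhibitor IkB-alpha, differed by 0.53 at its start (SE 0.21, adjusted p = 0.264), and Nfkbiz, a nuclear IkB protein, by -0.29 (SE 0.24, adjusted p = 0.635). At Nfkbia, second-phase A2 and B2 (both 9.32) lay above every rest library (8.47 to 8.73), and at Nfkbiz they did not. In total 23 of 241 peaks of 19 NF-kB genes rose (9.54%, list median 0.18), 9 of them among the 34 of Tnfaip3, the ubiquitin-editing enzyme that restrains NF-kB. Traf1, an adaptor of TNF receptors, held the largest change that the naming rule gave for this list. Its peak at chr2:34953693-34954092 rose by 3.92 (SE 0.47, adjusted p = 0.000594), from 2.98, 2.09, 4.29 and 3.91 to 3.32, 8.16, 4.07 and 8.08. A peak at -1218 bp from the start of Nfkb1, the p105/p50 subunit, rose by 3.59 (SE 0.44), from between 2.43 and 4.31 at rest to 4.59, 8.04, 4.61 and 8.29. All 4 second-phase libraries lay above the rest libraries there, with A1 and B1 nearer to rest.

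**Figure D3:**
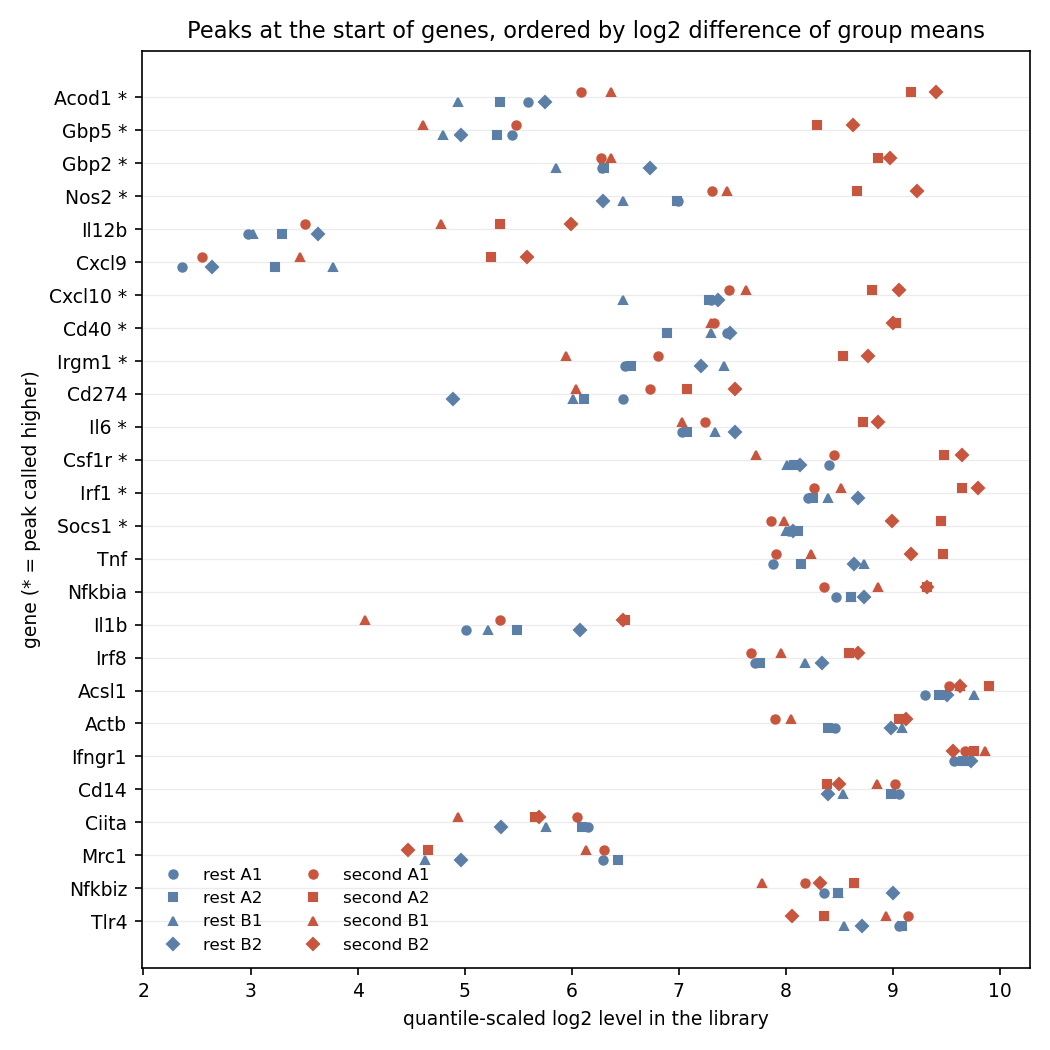
Log2 level in each library at the peak nearest to the start of 26 genes, ordered by the difference of group means (blue, rest; red, second phase; marker shape, library), with an asterisk for the 11 called higher. At those 11 genes second-phase A2 and B2 lie to the right of all 4 rest libraries, and all 4 second-phase libraries do so at 3, Acod1, Nos2 and Cxcl10. A2 and B2 also lie to the right of all 4 rest libraries at 7 of the 15 genes not called: Irf8, Nfkbia, Cxcl9, Il12b, Tnf, Il1b and Cd274.

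Guanylate binding proteins, GTPases that attack vacuoles of intracellular pathogens, were the list with the highest share of called peaks. Of 55 peaks at 11 genes, 28 rose (50.9%), 10 genes had at least 1, and the median over all 55 was 1.85 against -0.12 over all peaks. All 4 second-phase libraries lay above all 4 rest libraries at 2 of the 28, and at the other 26 A1, B1 or both did not. The same separation held at 15.3% of all peaks that rose. Gbp5 at its start (chr3:142496719-142497118) was at 5.44, 5.30, 4.80 and 4.97 at rest and 5.48, 8.29, 4.61 and 8.63 in the second phase. This gave a log2 difference of 2.69 (SE 0.41, adjusted p = 0.00221), a 6.45-fold rise of the group means. Without second-phase A1, A2, B1 or B2 in turn, or any rest library, the difference over libraries lay between 1.00 and 2.34. Gbp2 at its start (chr3:142620449-142620848) was at 6.28, 6.30, 5.85 and 6.73 at rest and 6.27, 8.86, 6.37 and 8.97 in the second phase. The rise was 2.03 (SE 0.34, adjusted p = 0.0035), again carried by A2 and B2. Start peaks of Gbp9 rose by 3.37 (SE 0.42) and of Gbp6, 16 bp from its start, by 3.72 (SE 0.47). These genes stand in clusters of near-identical copies, so the assignment of reads between them is uncertain.

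Of the immunity-related GTPases, which act on the same vacuoles, 10 of 42 peaks rose (23.8%, list median 0.55). The peak nearest to the start of Irgm1 was at 6.5, 6.55, 7.42 and 7.21 at rest and 6.81, 8.53, 5.95 and 8.77 in the second phase. Its rise of 1.36 (SE 0.35) had an adjusted p of 0.0467, and second-phase B1 was the lowest of the 8 libraries. Antiviral interferon-stimulated genes had 27 of 240 peaks that rose (11.2%, median 0.27), at 17 of the 41 genes with a peak (2502 of 19392 over all genes). An example was Ifi205, a DNA-binding protein of the HIN family, which rose by 2.65 (SE 0.40) at its start. A peak assigned to Aim2, a cytosolic DNA sensor, rose by 3.24 (SE 0.42) at chr1:173491036-173491435, which is 35682 bp from the assigned start. Parp14, an ADP-ribosyltransferase, had the most called peaks of this list, 5 of 13.

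In antigen presentation, 16 of 96 peaks of 16 MHC class II genes rose (16.7%, median 0.47). Ciita, the master activator of class II genes, was divided. The peak over its start differed by -0.09 (SE 0.40, adjusted p = 0.946), while one at -1030 bp (chr16:10486749-10487148) rose by 1.95 (SE 0.37, adjusted p = 0.00787). Levels of the latter were 6.05, 5.01, 5.76 and 5.71 at rest and 6.18, 8.09, 5.85 and 8.19 in the second phase. Ciita is known to have several promoters, and the annotated start is one of them. H2-Eb1, a class II beta chain, rose by 3.04 (SE 0.43) at chr17:34298643-34299042, from between 3.63 and 5.01 at rest to 4.74, 8.05, 4.94 and 8.26. Cd74, the invariant chain, rose at its start by 2.23 (SE 0.29, adjusted p = 0.000826), from between 5.85 and 7.37 to 6.60, 9.61, 6.04 and 9.69. Of 62 peaks of MHC class I and immunoproteasome genes 2 rose (3.23%), near the 2.75% of all peaks. The list median was 0.19, against -0.12 over all peaks. The 2 peaks were at B2m, the class I light chain, and at Tap2, a peptide transporter. The start peak of Tap2 rose by 1.72 (SE 0.42, adjusted p = 0.0346).

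Chemokine genes were uneven. Of 64 CXC peaks 14 rose (21.9%, median 0.33), 7 of them among the 16 of Cxcl5, a neutrophil attractant. The start peak of Cxcl10, which draws T cells, was at 7.30, 7.28, 6.48 and 7.37 at rest and 7.47, 8.80, 7.63 and 9.06 in the second phase. All 4 second-phase libraries lay above the rest libraries, and the difference was 1.44 (SE 0.29, adjusted p = 0.0123). Cxcl9, its neighbour with the same receptor, had low levels of 2.36, 3.23, 3.77 and 2.64 at rest and 2.55, 5.25, 3.46 and 5.58 in the second phase, and the difference of 1.64 (SE 0.49) had an adjusted p of 0.0965. All 8 CC chemokine peaks that rose, of 79 (10.1%), belonged to Ccl5, with 8 of its 10 peaks called. The start peak of Ccl5 (chr11:83530425-83530824) went from 3.6, 3.46, 5.22 and 3.44 to 4.48, 8.72, 5.25 and 8.79. This was an 18-fold rise of the group means, or 4.17 on the log2 scale (SE 0.43, adjusted p = 0.000331), with A1 inside the resting range.

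Cytokines and effectors had 41 of 300 peaks that rose (13.7%, median 0.36), at 18 of the 32 genes with a peak. Over all genes with a peak, 2502 of 19392 had one that rose. All 4 second-phase libraries lay above all 4 rest libraries at 7 of the 41, and at 589 (15.3%) of all 3846 peaks that rose. Acod1 makes itaconate, a metabolite of activated macrophages. Its start peak (chr14:103046758-103047157) was at 5.59, 5.33, 4.94 and 5.75 at rest and 6.09, 9.17, 6.37 and 9.40 in the second phase. All second-phase libraries exceeded all rest libraries, and the log2 difference was 3.25 (SE 0.36, adjusted p = 0.000386), a 9.51-fold rise. Nos2, inducible nitric oxide synthase, rose by 1.99 (SE 0.35, adjusted p = 0.00544) at its start, from 6.99, 6.98, 6.48 and 6.29 to 7.31, 8.66, 7.45 and 9.22, with no overlap of the phases. The start peak of Il6 (chr5:30012739-30013138) rose by 1.22 (SE 0.30, adjusted p = 0.0375), from 7.03, 7.08, 7.34 and 7.52 to 7.24, 8.72, 7.03 and 8.86. A peak at -92595 bp from Il6 (chr5:29920120-29920519) rose by 3.92 (SE 0.41, adjusted p = 0.000331), from between 3.6 and 4.15 to 4.36, 8.42, 4.61 and 8.38. At rest the Il6 start thus had the higher level of these 2 peaks, which are equally wide. Start peaks of other cytokine genes did not pass the test: Tnf differed by 0.69 (SE 0.24, adjusted p = 0.204), Il1b by 0.41 (SE 0.40, adjusted p = 0.692) and Il12b by 1.80 (SE 0.48, adjusted p = 0.0581). Il12b was nevertheless higher in A2, B1 and B2 (5.33, 4.78 and 5.99) than in every rest library (2.98 to 3.63).

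Of 153 peaks of costimulatory and surface activation genes, 14 rose (9.15%, median 0.34). The start peak of Cd40, a receptor for T cell help, rose by 1.37 (SE 0.28, adjusted p = 0.012), from 7.45, 6.89, 7.30 and 7.48 to 7.33, 9.03, 7.30 and 9.0. The peak nearest to the start of Cd274, which encodes PD-L1, differed by 1.28 (SE 0.40, adjusted p = 0.124), although 2 other peaks of its 6 rose. Among 18 inflammasome and cell death genes 9 of 114 peaks rose (7.89%, median 0.02), 3 of them at Ninj1, the protein of terminal membrane rupture.

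**Figure D4:**
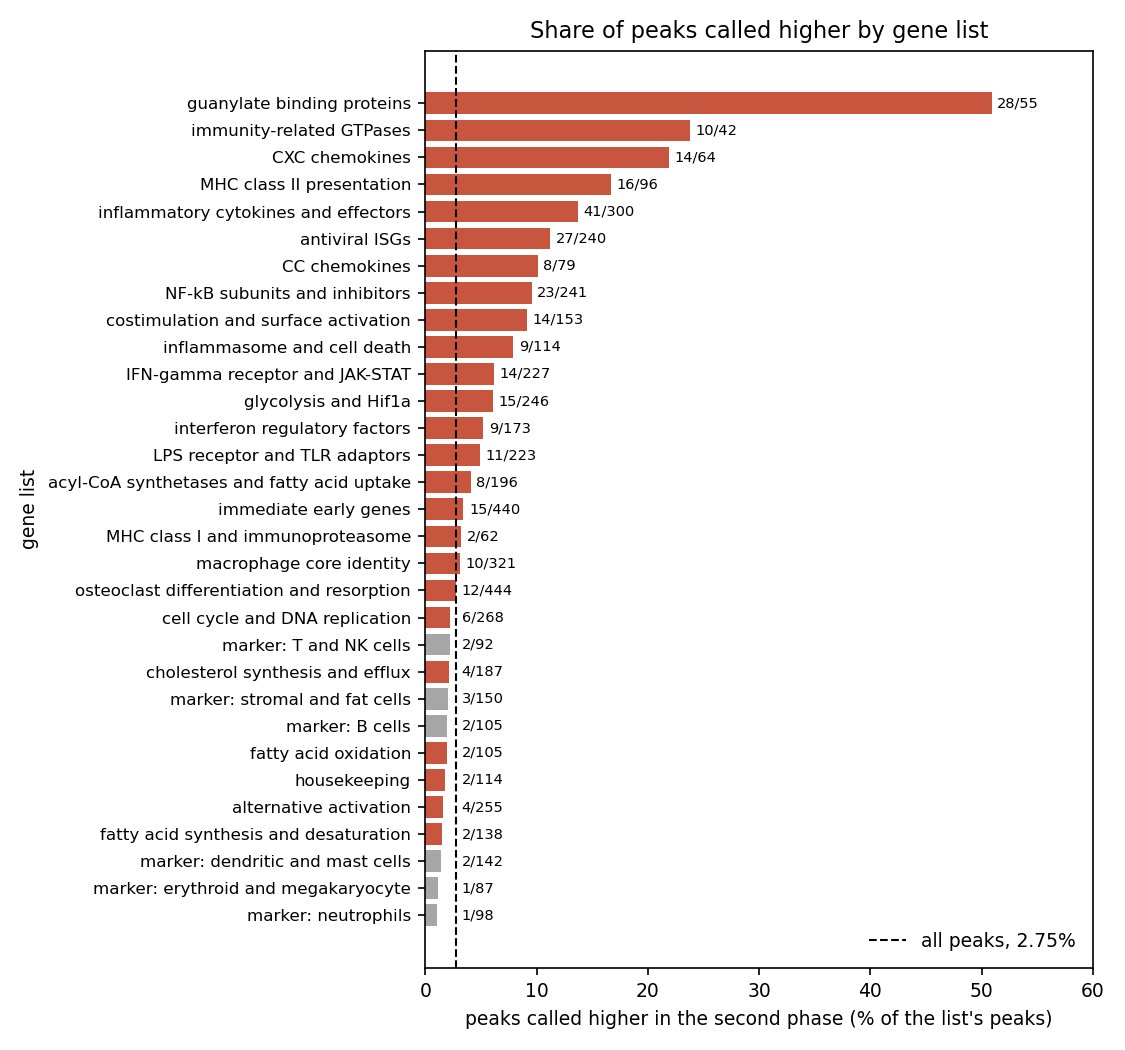
Percent of the peaks of each gene list that were called higher, with called and tested peaks beside each bar (red, pathway and function lists; grey, markers of other cell types) and the share over all peaks as a dashed line at 2.75%. Guanylate binding proteins stand at 50.9%, and the 6 lists of other cell types lie between 1.02% and 2.17%.

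Acsl1, the long-chain acyl-CoA synthetase in the title of the series, activates fatty acids for lipid synthesis and oxidation. Its start peak (chr8:46470652-46471051) was among the high peaks in every library, at 9.30, 9.43, 9.76 and 9.50 at rest and 9.52, 9.90, 9.63 and 9.63 in the second phase. The phases overlapped, and the difference of 0.24 (SE 0.16) had an adjusted p of 0.567. Away from the start, 6 of 23 Acsl1 peaks rose, with differences up to 4.07. The intergenic peak at -38702 bp from the start (chr8:46431936-46432335) was at 4.97, 3.88, 3.32 and 4.27 at rest and 4.89, 8.40, 4.07 and 8.43 in the second phase. Its difference was 3.46 (SE 0.42, adjusted p = 0.000608), or 11-fold, with A1 and B1 inside the range of rest. Over libraries the difference was 2.34, and it lay between 1.68 without second-phase B2 and 3.13 without second-phase B1. In all, 8 of 196 peaks of the acyl-CoA synthetase and uptake genes rose (4.08%, median 0.02), 1 of them at Acsl5, another synthetase of the family.

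Among other metabolic lists, fatty acid synthesis had 2 of 138 peaks that rose (1.45%, median -0.18), at Fads1, a desaturase, and at Me1, the malic enzyme that yields NADPH, whose intronic peak rose by 3.16 (SE 0.46). Fatty acid oxidation had 2 of 105 (1.90%), at Cpt1a, which brings fatty acids to mitochondria, and Ppard. Cholesterol synthesis and efflux had 4 of 187 (2.14%), 2 of them at Ch25h, the 25-hydroxylase. Glycolysis genes had 15 of 246 (6.10%, median 0.09), with 6 of 30 at Hif1a, the hypoxia factor, 4 of 27 at Pfkfb3, which makes the allosteric activator of phosphofructokinase, and 2 of 15 at Hk2, a hexokinase. In the lists of fatty acid synthesis, fatty acid oxidation and cholesterol the shares lay below the 2.75% of all peaks.

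Lists of cell state were near the share of all peaks. Macrophage identity genes had 10 of 321 peaks that rose (3.12%, median -0.06). Csf1r, the M-CSF receptor, was one of them at its start and rose by 1.18 (SE 0.22, adjusted p = 0.00783), from 8.40, 8.08, 8.01 and 8.13 to 8.45, 9.48, 7.72 and 9.64. Second-phase B1 was the lowest library at that peak. Osteoclast genes, of interest for bone healing around implants, had 12 of 444 (2.70%, median -0.06), among them a peak at 44215 bp from Tnfrsf11a, the receptor RANK, which rose by 2.47 (SE 0.49, adjusted p = 0.011). Alternative activation had 4 of 255 (1.57%), with Mrc1, the mannose receptor, at a difference of -0.19 at its start (SE 0.48, adjusted p = 0.897). Cell cycle genes had 6 of 268 (2.24%, median -0.19), immediate early genes 15 of 440 (3.41%) and housekeeping genes 2 of 114 (1.75%). Markers of other cell types had 11 called peaks among 674, and none of the 6 lists exceeded the share of all peaks.

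By size, the 10 largest rises under the naming rule included peaks at Fpr2, Helt, Acod1, Rbbp8, Kdr, Denr, Ccl5, Dnajc7 and Atp6v1e2, with log2 differences of 4.12 to 5.04. Their mean log2 levels were 2.66 to 3.89 at rest and 7.11 to 8.17 in the second phase. They thus met the level minimum of 5 only through the second phase, and their folds start from low resting levels. The largest, an intronic peak at chr17:17917502-17917901 assigned to Fpr2, a formyl peptide receptor of phagocytes, was at 3.11, 3.23, 3.6 and 2.04 at rest and 1.32, 8.52, 2.91 and 8.87 in the second phase. It was 33.0-fold higher in the group means (log2 5.04, SE 0.47, adjusted p = 0.000221). Second-phase A1 was the lowest of all 8 libraries there, and over libraries the difference was 2.41, or 1.25 without B2. Peaks assigned to Helt, a neural transcription factor, and Kdr, a VEGF receptor, lay at -70559 and -73186 bp from the assigned start. The symbol is that of the nearest start in the authors' annotation, and an intron may belong to another gene. By number of called peaks, a ranking chosen after the values were seen, Mir155hg, the host gene of the inflammatory microRNA miR-155, led with 13 of 26. Lmo4, a LIM-domain cofactor, followed among protein-coding genes with 11 of 45.

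Falls were few. The 15 peaks that fell belonged to 13 genes. The peak at chr8:72323276-72323675, 4243 bp from the start of Klf2, a zinc finger factor that restrains inflammatory activation, fell by 2.10 (SE 0.47, adjusted p = 0.0217). Its levels were 6.16, 6.57, 7.68 and 8.04 at rest and 5.19, 5.21, 5.63 and 4.59 in the second phase, so that all 4 second-phase libraries lay below all 4 rest libraries. The same separation held at 8 of the 15 peaks, against 3.62% of all peaks, but the 15 were selected on means of the same libraries. Rest-phase B1 and B2 were the highest libraries at Klf2. A peak near Actb (chr5:142902072-142902471), the beta-actin gene, fell by 1.80 (SE 0.42), from 7.91, 8.59, 9.41 and 9.89 to 6.39, 7.10, 8.58 and 7.55, while the start peak of Actb differed by 0.09 (SE 0.24, adjusted p = 0.897). The start peak of Arl4c, a small GTPase, fell by 0.93 (SE 0.24, adjusted p = 0.0499), from 9.38, 9.41, 9.12 and 9.16 to 9.22, 7.83, 9.15 and 7.60. At Arl4c it was again A2 and B2 that departed, here downwards, and A1 and B1 that stayed in the range of rest.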

How the data were processed

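Members and gene lists were chosen with earlier results of these data known. Per the submitters' processing notes the build was mm10 and the tools DiffBind 3.14.0, HOMER 5.1, DESeq, DESeq2, MACS2, Bowtie2 2.5.4, Picard 3.2.0, bedtools 2.28.0 and deepTools 3.2.1. Their roles are not given in the sources used. For each phase the authors deposited the log2 mean of normalized reads of each of 2 groups at 139999 peaks, normalized separately per table. Of these peaks 99.8% are 400 bp wide. The deposited fold changes and p-values were not used.

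The 2 tables were joined on position, 73 peaks with a listed 0 were left out, and the 4 mean columns were quantile-scaled together. Limma 3.58.1 in R 4.3.3 (empirical Bayes with a trend on signal) compared 2 second-phase with 2 rest-phase means, with Benjamini-Hochberg adjustment over 139926 peaks. A change was called at an adjusted p under 0.05. Because the tables were normalized separately, levels compared across them rest on this scaling, which sets all columns to 1 distribution. Group means average 2 libraries on the linear scale, so the higher library weighs more.

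A deposited mean averages the reads of 2 libraries after scaling. Solving for whole reads gave exactly 1 solution for every mean above the lowest value, with a largest relative miss of 3.46e-09. These reads, quantile-scaled as log2 (value + 1), give the levels by library and a fit of 4 against 4 libraries. The PCR reads carry no stated molecular identifiers. Depth here means reads in peaks. The fit was also run on simulated data in which every second-phase library carried the planted changes. That simulation cannot show how the fit behaves when libraries of a phase divide, as second-phase A1 and B1 did from A2 and B2.

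Named peaks were, by rule, the 10 largest called rises and falls, 1 per gene, with a mean level of at least 5 and both second-phase means on the same side of both rest means, excluding predicted gene models. To these were added the largest called peak of up to 3 genes per list under the same level minimum, and the peak nearest to the start of 28 genes (the highest where several overlap the start). Tap1, one of the 28, had no assigned peak. The level minimum is on the mean of all 4 columns, so a peak that is low at rest can pass through the second phase alone. Some genes that the rule names are not reported here. Genes with the most called peaks were added after their values were seen. Alternatives were scaling, filter, pseudocount, moderation, call, unit of replication and leaving out each mean and each library. Groups of the first phase, and any comparison of diabetic-trained with untrained cells, were not analysed here.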

Additional observations from a re-analysis of the deposited data

Results flagged for a closer look

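Among the 4 libraries of a phase, 206 sets of values (the named peaks and the reads in peaks) were searched for a library whose gap to its nearest neighbour as a share of the range exceeded Dixon's 95% critical value for 4 samples. There were 6 such sets, and 1 in 20 of the 206 is about 10.3. That figure counts the second-phase sets, where A2 and B2 stood together and a single library could hardly be marked. Whether the flags were fewer than chance would give can therefore not be said. All 6 were in the rest phase. Rest-phase B1 stood apart at 4 peaks on the log2 scale: at the start of Ccl5 it was at 5.22 against 3.44 to 3.6 in the other rest libraries, at the start of Gbp9 at 3.02 against 4.89 to 5.14, at the Vwf peak at 3.02 against 4.27 to 4.44 and at the start of Cxcl10 at 6.48 against 7.28 to 7.37. Rest-phase B2 was at 3.63 at the Dnajc7 peak, against 2.91 to 3.02. Rest-phase A1 was at 4.15 at the distal Il6 peak, against 3.6 to 3.66. In the second phase, where A2 and B2 stood together against A1 and B1, this criterion for a single library marked no peak.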

How the results depend on the processing

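No paired analysis was possible because the deposited mean columns carry no replicate numbers and are not tied to a donor group. Calls of higher (lower) peaks, 3846 (15) as reported, were 218 (1) with the log2 means as deposited, 4936 (76) with columns shifted to one median, 2884 (9) with a mean level of at least 4, 3852 (14) with listed zeros kept, 3929 (17) with a pseudocount of 1, 1240 (0) with no trend and 3811 (13) with an added log2 fold of at least 1. With libraries as replicates they were 0 (0) quantile-scaled, 0 (0) scaled to total reads and 194 (1) on the authors' scale. Leaving out 1 mean or 1 library gave 0 to 9270 higher and 0 to 1548 lower: 9270 (1548) without rest mean A, 5932 (354) without rest mean B, 5464 (482) without second-phase mean A, 692 (13) without second-phase mean B, and 0 (0) without any single library. The cause was not tested. Without second-phase mean B, 18% of the 3846 higher calls remained, and without second-phase mean A 92.8%. The 3846 peaks kept a positive difference in every fit where they were tested, except 4 of them without second-phase library A2 and 2 without B2. They were selected as rises on the same libraries, so the kept sign is not independent support.

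Of 87 named peaks that passed, 85 no longer did with the means as deposited, 47 with no trend, 54 without second-phase mean B, 81 with libraries on the authors' scale and 87 with libraries quantile-scaled, but none changed sign. Signs changed only at start peaks that had not passed, and the 87 were selected on the same libraries. With means as deposited, Ifngr1 was at -0.33, Acsl1 at -0.14 and Actb at -0.26. With columns shifted to one median they were at -0.20, -0.0032 and -0.13. Over libraries, Actb was at -0.19 quantile-scaled. With total reads, Ifngr1 was at -0.15, Acsl1 at -0.02 and Actb at -0.30. On the authors' scale, Ifngr1 was at -0.44, Irf8 at -0.11, Nfkbia at -0.01, Tnf at -0.03, Acsl1 at -0.32 and Actb at -0.59. Over the fits that left out 1 mean or 1 library, the ranges were Ifngr1 -0.03 to 0.11, Cd14 -0.37 to 0.25, Ciita -0.42 to 0.22, Mrc1 -0.89 to 0.51, Actb -0.39 to 0.40 and Il1b -0.16 to 0.72. Depth limits the low peaks: the median peak held 18 reads in the shallowest library.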
